A study of Mus musculus with 160 samples.

Results

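Oxidative phosphorylation is carried out by 5 enzyme complexes of the inner mitochondrial membrane, and the genes described here encode their subunits and 9 of their assembly factors. They were chosen by name: protein-coding genes whose Ensembl ID maps in GENCODE to Ndufa, Ndufb, Ndufc, Ndufs or Ndufv, to Sdha through Sdhd, to Uqcr or Cyc1, to Cox4 through Cox8, to Atp5, or to a symbol with the prefix mt-. Of the 46078 genes in the table this takes 85 subunits encoded in the nucleus, 13 encoded by mitochondrial DNA and the 9 assembly factors; 1 more symbol, Uqcrhl, matches but has no line in the table. The nuclear subunits are 38 of complex I (NADH dehydrogenase), 4 of complex II (succinate dehydrogenase), 9 of complex III (cytochrome c reductase), 18 of complex IV (cytochrome c oxidase) and 16 of ATP synthase. Members are counted in the complex their symbol names, so Ndufa4 and its relative Ndufa4l2 stand in complex I in every count by complex, although Ndufa4 is now known as a subunit of complex IV. Of the mitochondrial genes 7 belong to complex I, 1 to complex III, 3 to complex IV and 2 to ATP synthase.

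The study took cells from the aorta-gonad-mesonephros region (AGM) of mouse embryos, all of them Gata3-GFP +/-, in which GFP reports Gata3 transcription from a knock-in allele. Endothelial cells (EC, VE-cadherin+) and haematopoietic cells (HC, CD41 or CD45+) came from E10.5 embryos, and mesenchymal cells (MC, PDGFRb+) and cells of the sympathetic nervous system (SNS, p75+) from E11.5 embryos, each sorted into a Gata3-GFP+ and a Gata3-GFP- population. Every population was sequenced as 20 pools of 20 cells, 160 pools in all, of which 7 were left out for shallow or poor reads. The pools kept held between 1400824 and 16004756 counts on genes, with a median of 3801233. Both GFP populations carry the reporter allele, so each comparison sets cells of one genotype side by side by reporter level. The paper sorted EC and HC from a few biological replicates, each of several embryos, before splitting each population into pools. Pools of a population thus share animals, which the tests do not account for. Pools are not tied to embryos in the labels, and a p-value here measures spread between pools rather than between animals. In pools of cells, fewer cells that express a gene and less RNA per cell cannot be told apart.

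Complexes I to IV pass electrons from NADH and succinate to oxygen, and complexes I, III and IV pump protons that ATP synthase uses to make ATP. Complex II is encoded by the nucleus alone, while the other complexes join nuclear subunits with a core made on mitochondrial ribosomes. Some nuclear subunits exist as isoforms known from particular tissues or from low oxygen, and the endothelium and early blood cells of the embryo are known for a high use of glycolysis.

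Before the results, the labels were set against the sorting markers. In the E11.5 gates 12 pools carry the other gate's marker: 3 of the pools labelled GFP+ SNS, 3 labelled GFP- SNS, 3 labelled GFP+ MC and 3 labelled GFP- MC. The 3 labelled GFP+ SNS held 116.5 to 130.8 CPM (counts scaled to the total on genes) of Pdgfrb, the receptor that defines the MC gate, and 0.904 to 7.21 CPM of Ngfr, which encodes p75, and the 3 labelled GFP- SNS held 135.995 to 249 and 4.23 to 7.73 CPM. In the 3 pools labelled GFP+ MC these genes stood at 1.09 to 12.4 and 290.3 to 323 CPM, and in the 3 labelled GFP- MC at 0.952 to 1.89 and 28.9 to 110.7 CPM. The 3 labelled GFP- MC held 122.6 to 395 CPM of Gata3, against 2.52 to 19.02 CPM in the other pools with that label, and the 3 labelled GFP+ MC 16.2 to 82.2 CPM. Those labelled GFP+ SNS held 9.96 to 24.3 CPM of Gata3 and those labelled GFP- SNS 44.3 to 50.1 CPM, so among these 12 pools Gata3 was lower under the GFP+ label in both gates. The 12 pools fill the last columns of each gate in the counts. Whether columns or wells were exchanged was not tested, and no pool was given a new label. Most results for MC and SNS are given with all pools and without these 12 pools; levels per length, detection, the sorting markers other than Gata3 and the ranges of the mitochondrial genes over populations are given with all pools alone. In the EC and HC gates 0 pools went against their label.

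**Figure D1:**
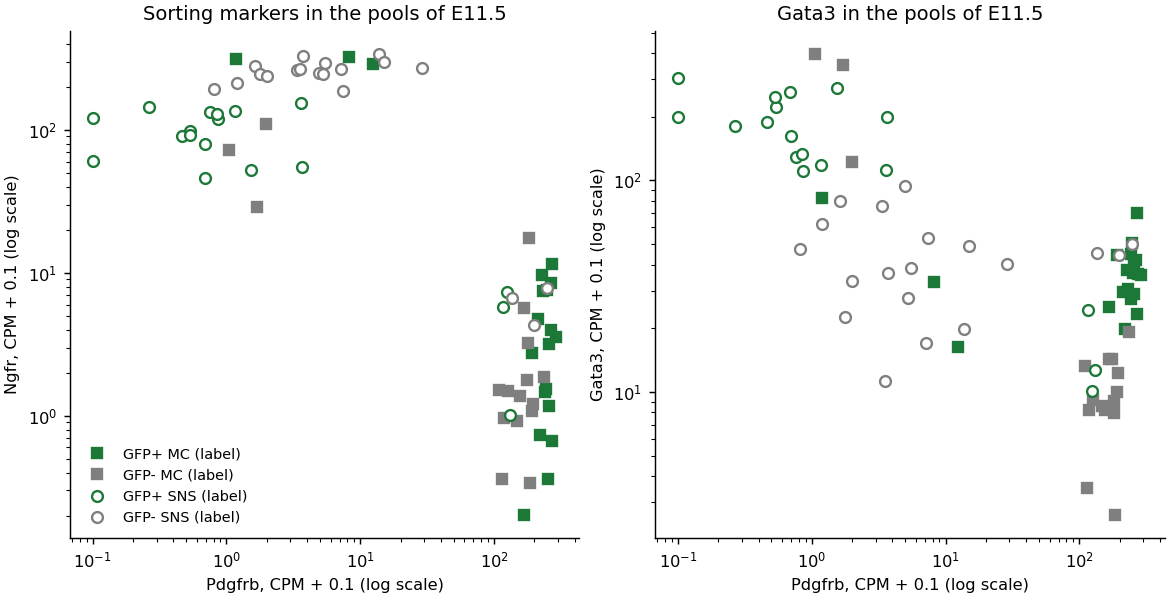
Pdgfrb against Ngfr and against Gata3 in each E11.5 pool, on logarithmic axes of CPM. Squares are pools labelled MC and circles pools labelled SNS, in green for GFP+ and grey for GFP-. The 12 pools that carry the other gate's marker have no mark of their own.

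The plot of Pdgfrb against Ngfr places 11 of these 12 pools within the range of the other gate. The last, labelled GFP- MC, held 28.9 CPM of Ngfr, where the lowest SNS pool that fits its label held 45.9 and the highest such MC pool 17.3. Gata3 itself, the transcription factor whose locus carries GFP, stood at 28.5, 77.9 and 174 CPM (lowest, median and highest pool, as in all triplets below) in GFP+ EC and at 4.37, 10.45 and 29.6 CPM in GFP- EC. The ranges overlapped in 1 of 19 GFP+ pools. Under edgeR's quasi-likelihood test (Benjamini-Hochberg adjustment) the log2 fold change in EC was 2.66, SE 0.22, adjusted p = 9.6e-14, with 18 of 19 pools above all GFP- pools. In HC it stood at 12.7, 45.04 and 148.7 CPM against 1.78, 7.02 and 12.9 CPM, with 19 of 20 pools above all GFP- pools (log2 fold change 2.89, SE 0.26). Pools labelled SNS held 9.96, 171 and 306 CPM against 11.2, 44.3 and 93.9 CPM (log2 fold change 1.85, SE 0.31, 15 of 18 above), and without the 6 pools 111.1, 188 and 306 CPM against 11.2, 39.3 and 93.9 CPM (2.10, SE 0.23, all 15 above). Pools labelled MC held 16.2, 35.8 and 82.2 CPM against 2.52, 9.84 and 395 CPM; the log2 fold change there was -0.66 (SE 0.52) and was not called, while without the 6 pools it was 1.88 (SE 0.22), so the direction turned.

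The other sorting markers showed which gate each population came from. Cdh5, which encodes VE-cadherin, stood at 755, 1000.1 and 1733 CPM in GFP+ EC and 265, 429.9 and 725 CPM in GFP- EC, with no overlap, at medians of 9.67 and 4.04 CPM in HC, and at medians of 0 in the pools labelled MC and SNS, where the highest pool held 2.88 CPM. Itga2b, which encodes CD41, had medians of 232 CPM in GFP+ HC and 8.65 in GFP- HC, and Ptprc, which encodes CD45, 208 and 429. In EC both had medians under 5 CPM. The GFP+ and GFP- HC thus differed in the mix of CD41 and CD45 RNA that their shared gate allows. Pdgfrb had medians of 244 and 155.5 CPM in the pools labelled GFP+ and GFP- MC, and Ngfr 91.4 and 251 CPM in those labelled GFP+ and GFP- SNS.

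Levels can be compared between genes only per length. As the median over all pools kept in CPM per kb of exon, the highest nuclear subunit of each complex was Ndufa2 (597), Sdhd (162.3), Uqcr10 (395), Cox8a (991) and Atp5b (378). They encode an accessory subunit of complex I, the small membrane anchor of succinate dehydrogenase, a small subunit of complex III, a small subunit of complex IV and the catalytic beta subunit of ATP synthase. Over the members the median per kb was 105.4 in complex I, 95.4 in complex II, 184 in complex III, 91.7 in complex IV and 170.3 in ATP synthase. On the same scale mt-Nd1 (5946), mt-Cytb (5378), mt-Co1 (4312) and mt-Atp6 (545) led the mitochondrial genes of their complexes. The lowest there were mt-Nd4l (64.9), mt-Co2 (334) and mt-Atp8 (46.8), and mt-Nd4l and mt-Atp8 lay below the medians of the nuclear subunits of their complexes. Among the assembly factors Ndufaf8, which serves complex I, led with 49.5.

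Detection was deep for most of the nuclear subunits. Between 77 and 79 of the 85 had at least 10 counts in every pool of a population. The genes with 0 counts in whole populations were tissue isoforms of complex IV: Cox8b was absent from every GFP+ EC pool, Cox6a2, Cox7b2, Cox8b and Cox8c from every GFP- EC pool, Cox8c from GFP+ HC, Cox7b2 and Cox8b from GFP- HC, and Cox6a2, Cox7b2 and Cox8c from both SNS labels. Pools labelled GFP+ MC held no count of Cox6a2, Cox8b or Cox8c, and those labelled GFP- MC none of Cox6a2 or Cox8c.

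Several members share reads with other genes, and their levels are uncertain for that reason. Of the nuclear members, 23 have near-identical copies (at least 95% identity over at least 100 bases), 40 copies in all, and 9 mitochondrial members have 11 such copies in nuclear DNA. In GFP+ and GFP- EC the copies took 78.8 and 79.2% of the counts on Atp5l and its copies together, 69.1 and 70.5% for Cox7c, 59.4 and 58.98% for Atp5h, 57.2 and 58.1% for Atp5g1, 49.6 and 52.02% for Ndufab1 and 43.1 and 43.4% for Atp5g2. For Cox7b they took 3.44 and 3.52%, and Atp5b, Cox5a and Ndufa8 have no such copy. Exon bases shared with another gene touch 27 nuclear and 10 mitochondrial members, among them Ndufb6 with Smim27, Ndufa13 with Tssk6 and Cox4i1 with Emc8.

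As a group the nuclear subunits held 1.16, 1.77 and 2.18% of the counts on genes in GFP+ EC and 2.30, 2.45 and 3.06% in GFP- EC. The ranges did not overlap, with all 19 GFP+ pools below every GFP- pool. HC held 1.95, 2.28 and 2.53% against 2.11, 2.47 and 3.46%, and 3 of 20 GFP+ pools lay below all GFP- pools. Pools labelled MC held 1.68, 1.83 and 2.33% against 1.90, 2.12 and 2.29%, with 14 of 20 below, and 1.68, 1.81 and 2.13% against 1.90, 2.12 and 2.29% without the 6 pools. In pools labelled SNS the share was 1.92, 2.08 and 2.40% against 1.73, 2.12 and 2.70%, and 1.92, 2.06 and 2.40% against 1.83, 2.13 and 2.70% without the 6 pools. The SNS ranges overlapped widely in both sets.

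The 13 mitochondrial genes moved otherwise. They held 1.73, 2.43 and 2.72% in GFP+ EC and 1.77, 2.03 and 2.45% in GFP- EC, with 7 of 19 GFP+ pools above all GFP- pools. The ratio of mitochondrial to nuclear counts, which no scaling of the pools can change, was 1.09, 1.35 and 1.502 in GFP+ EC and 0.684, 0.803 and 1.05 in GFP- EC. These ranges did not overlap, with all 19 GFP+ pools higher. The medians of the ratio in HC were 1.01 and 0.868 (6 of 20 above all GFP- pools). In pools labelled MC they were 1.51 and 1.26 (14 of 20 above), or 1.54 and 1.23 (12 of 17) without the 6 pools, and in pools labelled SNS 1.27 and 1.28 (0 of 18), or 1.29 and 1.23 (0 of 15). In EC the ratio differed most in ATP synthase (0.121 against 0.0657), with 2.74 against 1.61 in complex III, 1.86 against 1.07 in complex IV and 1.71 against 1.25 in complex I. Counting just the 6 mitochondrial genes with no copy of 99% identity in the table, it was 0.792 against 0.509, with 15 of 19 above.

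**Figure D2:**
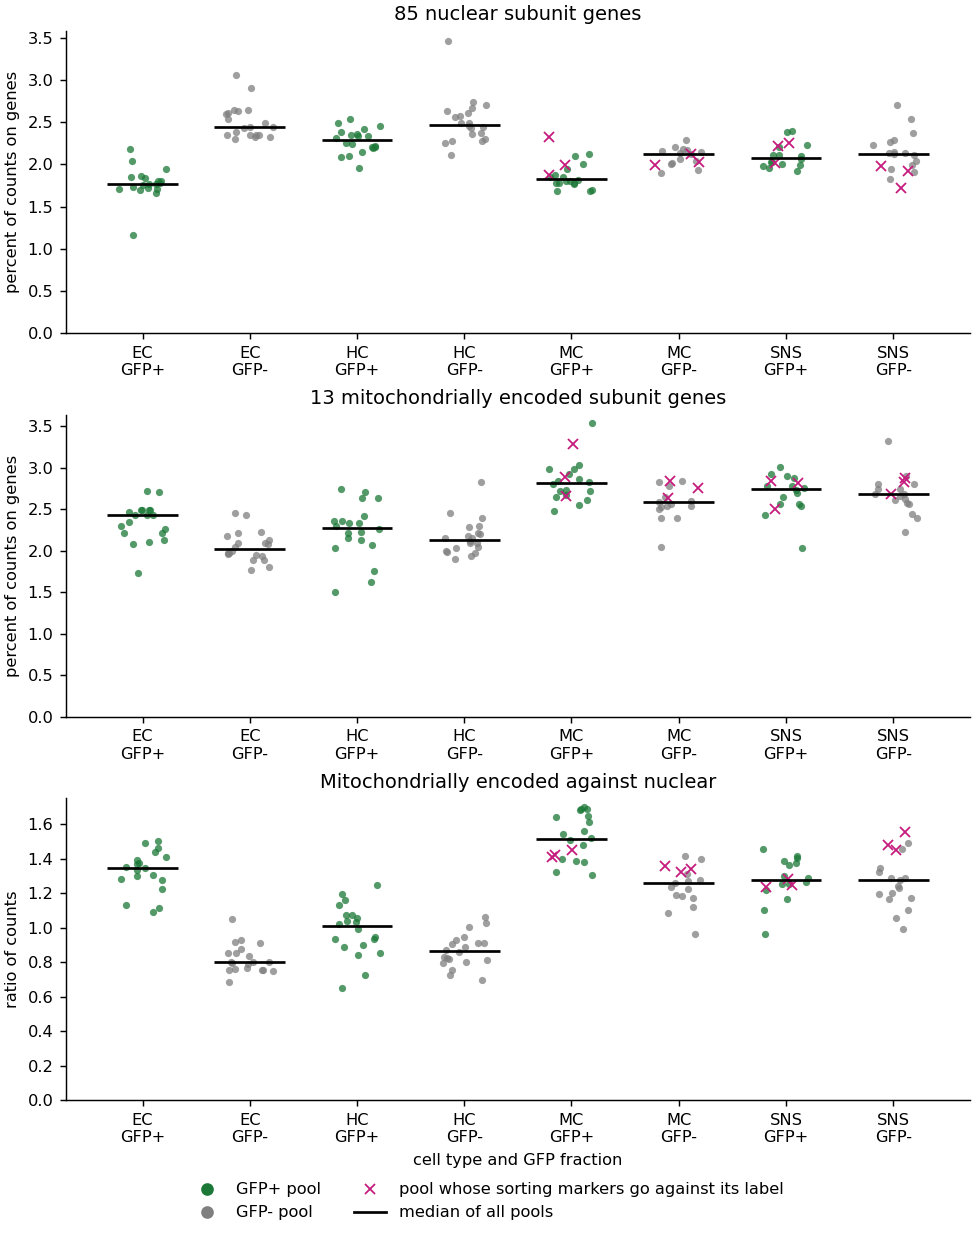
Share of counts on nuclear and on mitochondrially encoded subunits, and the ratio of mitochondrial to nuclear counts, in each pool. Crosses mark the 12 pools that go against their label.

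In the plot of pool values the GFP+ EC stand apart from GFP- EC in the nuclear panel and again in the ratio panel, while the MC labels separate less and the SNS labels do not.

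GFP+ EC are the endothelial fraction with an active Gata3 locus at the stage when the first blood stem cells form from the aortic wall. Scaled to the counts on genes, they held less RNA of most nuclear subunits, in all 5 complexes, and more of several mitochondrial transcripts. The test compared 79 of the 85 nuclear subunits (at least 10 counts in at least 5 pools) and called a gene whose log2 fold change was beyond 0.1 with an adjusted p under 0.01. It called 60 of 79 lower in GFP+ EC, where 16.5% of the 15073 genes tested were lower, and 2 higher, where 19.5% of all genes were; the median log2 fold change was -0.49 against 0.10 over all genes, which ERCC scaling moves to -0.60. Abundant genes as a whole also leaned down: of the 1870 genes with a mean of at least 100 CPM, 44.1% were lower and 21.9% higher. By complex the calls were 15 of 16 subunits of ATP synthase (median -0.60), 9 of 9 of complex III (-0.49), 10 of 13 of complex IV (-0.52), 24 of 37 of complex I (-0.41) and 2 of 4 of complex II (-0.29). Of the counts on genes, ATP synthase subunits held a median of 0.511% against 0.770%, with all 19 GFP+ pools below all GFP- pools, and complex II 0.0791% against 0.0958%, with 10 of 19 below.

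Ndufa8 (chr2:36036326-36049406, minus strand, GRCm38), which encodes an accessory subunit of complex I on the intermembrane side, had the largest fall. It stood at 57.9, 126.6 and 197 CPM in GFP+ EC and 220.3, 289 and 437 CPM in GFP- EC. The groups did not overlap. Under edgeR's quasi-likelihood test (Benjamini-Hochberg adjustment) its log2 fold change was -1.19, SE 0.10, adjusted p = 3.4e-13, with all 19 GFP+ pools below every GFP- pool.

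Cox7b (chrX:106015700-106022450, plus strand), a structural subunit of complex IV, stood at 231, 312 and 405 CPM against 429, 537 and 744 CPM. Its groups did not overlap either. The change on the log2 scale was -0.86, SE 0.07, adjusted p = 5.3e-13 under edgeR's quasi-likelihood test (Benjamini-Hochberg adjustment), with all 19 pools below. Atp5g3 (chr2:73908447-73911326, minus strand), which encodes the c subunit of the rotor of ATP synthase, stood at 217, 310.0 and 422 CPM against 407, 494 and 1168 CPM. Its ranges overlapped in 1 GFP+ pool. The log2 fold change of Atp5g3 was -0.87, SE 0.10, adjusted p = 3.1e-09 under edgeR's quasi-likelihood test (Benjamini-Hochberg adjustment), with 18 of 19 pools below all GFP- pools.

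Cox5a (chr9:57521274-57532426, plus strand), another nuclear subunit of complex IV, stood at 47.4, 137.8 and 204 CPM against 171, 229 and 302 CPM. The highest 2 GFP+ pools overlapped the GFP- range. For Cox5a the log2 fold change was -0.81, SE 0.10, adjusted p = 2.2e-09 under edgeR's quasi-likelihood test (Benjamini-Hochberg adjustment), with 17 of 19 pools below all GFP- pools. Atp5g1, another gene for the c subunit that shares reads with its copies, stood at 57.9, 88.4 and 106.3 CPM against 106.02, 143.5 and 198 CPM. Of its GFP+ pools 18 of 19 lay below all GFP- pools (log2 fold change -0.79, SE 0.07). Atp5b, the catalytic beta subunit, stood at 515, 1019.9 and 1198 CPM against 1108, 1588 and 2176 CPM. Here 17 of 19 pools lay below all GFP- pools (log2 fold change -0.72, SE 0.08).

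The promoters of genes that fell together can be read side by side. RefSeq promoters (build GRCm38.p6) were found for 67 nuclear subunits. The 250 bases before the start are printed below for 3 of the 5 genes with the largest falls in EC. These are the first that have 1 promoter in that source and whose window shares no base with an exon of their own or another gene. They are Atp5g3 (chr2:73911327-73911576, minus strand), Cox7b (chrX:106015450-106015699, plus strand) and Cox5a (chr9:57520982-57521231, plus strand), each on its own strand from 5' to 3', with motif matches in capitals.
Atp5g3: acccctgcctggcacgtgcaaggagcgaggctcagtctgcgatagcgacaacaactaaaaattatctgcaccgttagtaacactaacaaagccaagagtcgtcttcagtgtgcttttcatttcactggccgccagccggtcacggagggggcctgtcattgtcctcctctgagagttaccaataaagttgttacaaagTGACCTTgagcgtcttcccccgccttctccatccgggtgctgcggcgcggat
Cox7b: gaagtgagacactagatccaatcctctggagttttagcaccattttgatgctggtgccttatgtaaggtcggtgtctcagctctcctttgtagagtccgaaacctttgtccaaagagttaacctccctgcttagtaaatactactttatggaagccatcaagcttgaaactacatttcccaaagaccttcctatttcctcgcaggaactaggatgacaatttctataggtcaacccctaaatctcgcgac
Cox5a: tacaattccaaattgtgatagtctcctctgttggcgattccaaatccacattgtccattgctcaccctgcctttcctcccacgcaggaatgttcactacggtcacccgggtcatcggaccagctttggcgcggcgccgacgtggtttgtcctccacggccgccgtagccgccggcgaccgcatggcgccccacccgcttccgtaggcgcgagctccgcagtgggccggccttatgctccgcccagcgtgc
The letters of 3 motifs of factors known for mitochondrial genes were searched on both strands: GCGCATGCG (NRF1), CCGGAAG (GABPA) and AAGGTCA (ERR). The Atp5g3 promoter held 1 match, to the ERR letters, 52 bases before the start, and the other 2 held none. Ndufa8, which was passed over, held 1 match to the NRF1 letters 9 bases before the start, and Atp5g1 held 0. Of the promoters of nuclear subunits, 8.33% held the NRF1 letters, 16.7% those of GABPA and 6.94% those of ERR, against 1.45%, 6.91% and 4.08% of all 32851 promoters. For the subunits lower in GFP+ EC the shares were 9.80%, 15.7% and 5.88%. A match describes letters, and binding was not measured.

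The subunits that rose in GFP+ EC were isoforms of complex IV. Cox4i2, the isoform of subunit 4 known from lung and low oxygen, stood at 0, 2.83 and 12.05 CPM against 0, 0.167 and 3.66 CPM. The groups overlapped, and the level was low. Cox4i2 had a log2 fold change of 2.08, SE 0.59, adjusted p = 0.0032 under edgeR's quasi-likelihood test (Benjamini-Hochberg adjustment), with 5 of 19 pools above all GFP- pools; with ERCC scaling it was 1.34 and not called. Cox7a2l, a relative of Cox7a2 known to join complexes III and IV in supercomplexes, stood at 161.8, 217 and 374 CPM against 153.1, 184 and 219 CPM. It overlapped in 11 of 19 GFP+ pools. The log2 fold change of Cox7a2l was 0.27, SE 0.08, adjusted p = 0.0033 under edgeR's quasi-likelihood test (Benjamini-Hochberg adjustment), with 8 of 19 pools above all GFP- pools, and it turned to -0.44 when counts were scaled by the ERCC RNAs.

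All 13 mitochondrially encoded genes could be tested in EC. Of these 6 were higher in GFP+ EC and 0 lower, where 19.5% and 16.5% of all genes were. Of the genes with a mean of at least 100 CPM 21.9% were higher and 44.1% lower. At an unadjusted p under 0.05 the counts were 7 and 0, and the median log2 fold change was 0.26. With ERCC scaling 0 were higher and 5 lower, while the DESeq2 Wald test called 6 higher and 0 lower. mt-Nd4, a membrane subunit of complex I, stood at 1532, 1859 and 2529 CPM against 1127, 1323 and 1513 CPM. The groups did not overlap. Its log2 fold change was 0.48, SE 0.05, adjusted p = 1.8e-11 under edgeR's quasi-likelihood test (Benjamini-Hochberg adjustment), with all 19 pools above, and it turned to -0.18 with ERCC scaling. mt-Co1, which holds the oxygen-reducing site of complex IV, stood at 4739, 6148 and 7358 CPM against 4122, 4962 and 6122 CPM. It lay above all GFP- pools in 11 of 19 (log2 fold change 0.31, SE 0.05; -0.43 with ERCC scaling). The other 4 called were mt-Co3 (0.40), mt-Nd4l (0.36), mt-Atp6 (0.27) and mt-Cytb (0.26), which turned to -0.26, -0.38, -0.40 and -0.44 with ERCC scaling.

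The 7 mitochondrial genes not called in EC had log2 fold changes of 0.29 (mt-Atp8), 0.24 (mt-Nd3), 0.19 (mt-Nd2), 0.15 (mt-Nd6), 0.11 (mt-Nd5), 0.11 (mt-Co2) and -0.11 (mt-Nd1), and with ERCC scaling all 7 were below 0, at -0.40, -0.37, -0.38, -0.32, -0.58, -0.51 and -0.80 in the same order. The pools also differed in counts on genes per ERCC count, whose log2 had a median of 5.88 in GFP+ EC and 6.70 in GFP- EC, with 11 of 19 below. Per ERCC count, nuclear subunits had medians of 1.06 and 2.59 (17 of 19 below) and mitochondrial genes 1.43 and 2.06 (10 of 19 below). The share of mitochondrial transcripts among counts was thus higher in GFP+ EC, and their amount per ERCC count lower.

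**Figure D3:**
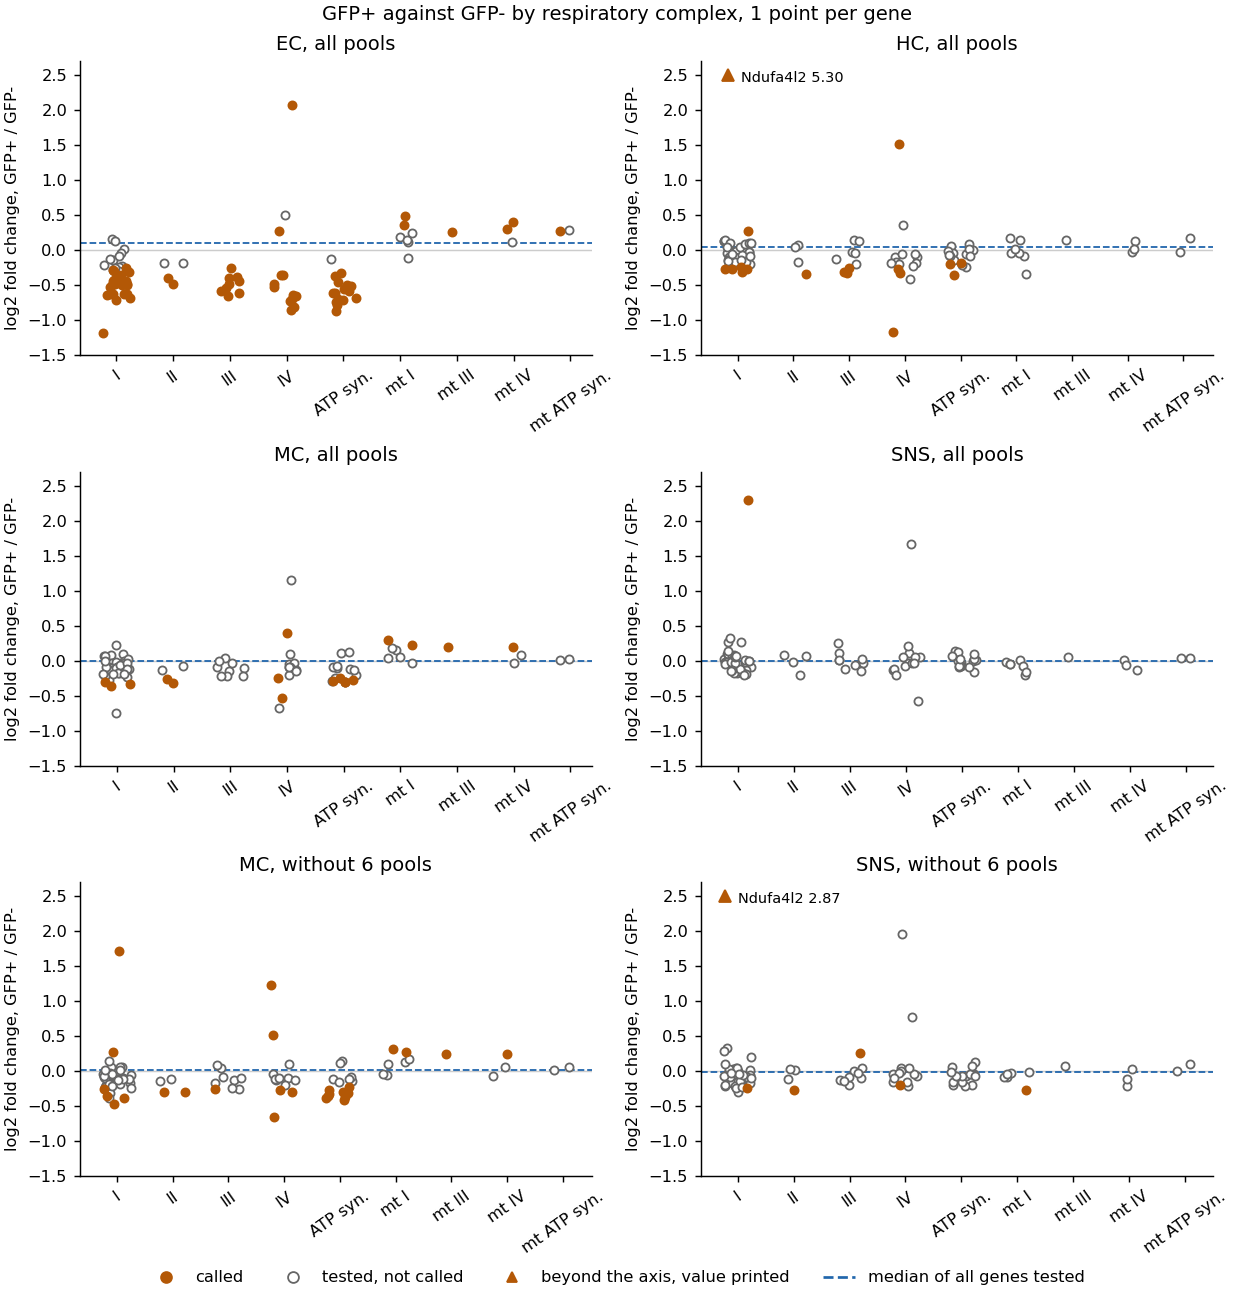
Log2 fold change of every tested member by complex, GFP+ against GFP-, called members filled, for all pools and for MC and SNS without the pools that go against their label. The dashed line is the median of all genes, which ERCC scaling moves from 0.10 to -0.60 in EC and from -0.00 to 0.35 in SNS.

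In the plot of fold changes by complex the EC panel shows all but 2 of the filled nuclear points below the dashed line and most mitochondrial points above it, and the other panels hold fewer filled points. Marker lists moved with these results. The 7 endothelial genes summed to a median of 5486 CPM in GFP+ EC and 3612 in GFP- EC (most abundant Cdh5 and Emcn). The 12 cell cycle genes summed to 1223 and 2473 CPM (Cdk1 most abundant in both), with 18 of 19 GFP+ pools below all GFP- pools. Stmn2, a gene of neurons, had medians of 368 and 41.95 CPM, with Phox2a, Th and Chga at 0 in the median GFP+ pool. The 7 mesenchymal genes summed to 92.04 and 15.6 CPM (Col1a2 and Col3a1 most abundant), and 1 GFP+ pool held 1548; without that pool the counts of called subunits kept their values within 1.5 times. Haematopoietic genes (7) summed to 22.7 and 15.6 CPM. What these differences add to the results on the subunits was not tested.

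The genes around the complexes were compared in the same way. Their counts stand beside the 19.5% higher and 16.5% lower of all genes in EC, and the 21.9% and 44.1% of genes with a mean of at least 100 CPM. They were 1 higher and 47 lower of 77 mitochondrial ribosomal protein genes (median log2 fold change -0.44), with Mrps18b (-1.48), Mrps27 (-0.98) and Mrpl19 (-0.94) falling most and Mrps18a rising (0.40, but -0.31 with ERCC scaling). Among electron carriers and exchangers 0 higher and 10 lower of 17 were called (median -0.53). Slc25a5, which swaps ADP for ATP across the inner membrane, stood at 236, 412 and 540.3 CPM against 772, 911 and 1115 CPM. The groups of pools stood apart. Slc25a5 had a log2 fold change of -1.19, SE 0.07, adjusted p = 1.6e-17 under edgeR's quasi-likelihood test (Benjamini-Hochberg adjustment), with all 19 pools below. Cycs, the cytochrome c that links complexes III and IV, changed by -1.22, and Coq7, an enzyme of ubiquinone synthesis, by -1.23. Of genes for pyruvate entry and the tricarboxylic acid cycle 0 higher and 8 lower of 20 were called (median -0.33). The share lower on this list was under that of abundant genes. Suclg2 (-1.12), Fh1 (-1.07) and Idh3a (-0.98), which encode enzymes of the cycle, fell most.

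Assembly factors outside the naming rule counted 0 higher and 5 lower of 35 (median -0.07), a lower share than the 16.5% of all genes. Uqcc2, which serves complex III, stood at 51.6, 86.01 and 122.7 CPM against 124.2, 171 and 257 CPM. Its groups did not overlap. Uqcc2 had a log2 fold change of -1.03, SE 0.09, adjusted p = 1.8e-13 under edgeR's quasi-likelihood test (Benjamini-Hochberg adjustment), with all 19 pools below. Coa3 and Cox10, which serve complex IV, changed by -0.70 and -0.87. The 9 assembly factors that match the naming rule counted 0 higher and 4 lower (median -0.66): Ndufaf6 (-1.10), Ndufaf5 (-1.02), Ndufaf4 (-0.78) and Ndufaf2 (-0.73), all of complex I.

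Of the factors and coactivators known to drive mitochondrial biogenesis 1 higher and 2 lower of 10 were called. Ppargc1a, a coactivator of respiratory genes, stood at 0, 8.03 and 22.1 CPM against 0, 0 and 1.87 CPM. The groups overlapped at the low end. Its log2 fold change was 5.36, SE 0.61, adjusted p = 1.1e-09 under edgeR's quasi-likelihood test (Benjamini-Hochberg adjustment), with 15 of 19 pools above all GFP- pools. Its relative Ppargc1b changed by -3.78 at medians of 0 and 3.59 CPM, and the growth regulator Myc by -1.85 at 16.2 and 66.96 CPM. The genes called thus went both ways. Genes of mitochondrial DNA and RNA handling counted 0 higher and 4 lower of 26 (median -0.16), with the RNA-binding proteins Tbrg4 (-0.65) and Fastkd2 (-0.64) and the RNase P subunit Hsd17b10 (-0.56) falling most; this share too is under that of all genes. Hypoxia-inducible genes counted 1 higher and 5 lower of 12 (median -0.83): Vegfa, an endothelial growth factor, changed by 3.63, and Ldha, Pdk1 and Pgk1, enzymes of glycolysis and its control, by -1.23, -1.01 and -0.99. Reactive oxygen defence and uncoupling counted 1 higher and 3 lower of 10 (median -0.19), with the peroxidases Prdx3 (-0.71) and Gpx1 (-0.26) and thioredoxin Txn2 (-0.52) lower and Prdx5 higher (0.44, but -0.31 with ERCC scaling). The shares lower of the biogenesis, hypoxia-inducible and defence lists were under the 44.1% of genes with a mean of at least 100 CPM.

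GFP+ HC are the E10.5 blood cells with an active Gata3 locus. Some of their nuclear subunits were lower than in GFP- HC, and the largest changes were in isoforms. Of 82 nuclear subunits tested 15 were lower, where 9.53% of 16200 genes were, and 3 higher, where 17.1% were; the median log2 fold change was -0.09 against 0.05 over all genes. Of the 1871 genes with a mean of at least 100 CPM 23.04% were lower and 22.4% higher; the counts of subunits are not above these shares. The lower ones were 5 of 38 subunits of complex I, 1 of 4 of complex II, 3 of 9 of complex III, 3 of 15 of complex IV and 3 of 16 of ATP synthase. Their number changed with the processing, from 3 with ERCC scaling to 25 with the scanpy t-test on scran-normalized counts. Of the mitochondrial genes 0 were called (3 higher and 1 lower at an unadjusted p under 0.05). The DESeq2 Wald test and DESeq2 size factors called 1 higher, and 6 other settings, among them scran size factors and the scanpy t-test, called 1 lower.

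Ndufa4l2 (chr10:127514967-127517154, plus strand), a relative of the complex IV subunit Ndufa4 that is known as a target of hypoxia-inducible factors, stood at 0, 0.873 and 149.4 CPM in GFP+ HC and 0, 0 and 9.42 CPM in GFP- HC. In 8 GFP+ pools it was high and the others lay within the GFP- range. For Ndufa4l2 the log2 fold change was 5.30, SE 0.99, adjusted p = 3.8e-05 under edgeR's quasi-likelihood test (Benjamini-Hochberg adjustment), with 8 of 20 pools above all GFP- pools. Cox6b2 (chr7:4751792-4753094, minus strand), the isoform of Cox6b1 known from testis, stood at 5.79, 21.02 and 49.8 CPM against 0.787, 6.51 and 26.3 CPM. The groups overlapped in 11 of 20 GFP+ pools. The log2 fold change of Cox6b2 was 1.52, SE 0.31, adjusted p = 1.2e-04 under edgeR's quasi-likelihood test (Benjamini-Hochberg adjustment), with 9 of 20 pools above all GFP- pools. Ndufs4, an accessory subunit of complex I, changed by 0.27 (SE 0.07), with medians of 205 and 168.89 CPM.

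Cox4i2 (chr2:152754173-152765037, plus strand) was lower in GFP+ HC: it stood at 1.64, 6.25 and 20.4 CPM against 3.71, 14.4 and 40.97 CPM. The ranges overlapped in 13 of 20 GFP+ pools. Its log2 fold change was -1.16, SE 0.30, adjusted p = 0.0018 under edgeR's quasi-likelihood test (Benjamini-Hochberg adjustment), with 7 of 20 pools below all GFP- pools. Cox4i1, the main form of the same subunit, stood at 813, 929 and 1234 CPM against 1009, 1163 and 1996 CPM. It lay below all GFP- pools in 11 of 20 (log2 fold change -0.32, SE 0.06). Other falls were those of Atp5g1 (-0.36, SE 0.07, 10 of 20 below), Sdhd (-0.34, SE 0.08, 4 of 20) and Uqcrfs1, the Rieske iron-sulfur protein of complex III (-0.33, SE 0.07, 5 of 20). Of the 9 assembly factors that match the naming rule 1 fell, a share near the 9.53% lower of all genes. It was Ndufaf8 (-0.39, SE 0.12), at 27.4, 64.5 and 100.7 CPM against 60.4, 80.6 and 113.05 CPM.

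The GFP+ and GFP- HC differed in kinds of blood cell. The 4 megakaryocyte genes summed to a median of 9042 CPM in GFP+ HC and 574 in GFP- HC (Pf4 most abundant), the 6 granulocyte genes to 36.1 and 1286 (Prtn3 and Mpo; Elane and Ngp at 0 in the median GFP+ pool), and the 8 macrophage genes to 4263 and 6401 (C1qb). Haematopoietic genes summed to 822 and 1041 CPM (Itga2b and Spi1). Several lists of other cells were higher in GFP+ HC, among them mesenchymal 319.5 and 34.95, endothelial 181 and 59.7, muscle 49.2 and 7.41 (Actc1; Myod1 and Myog at 0 in the median pool) and urogenital epithelium 35.3 and 1.46 CPM (Wt1; Pax2, Pax8 and Upk3b at 0). The cell cycle genes summed to 2280.0 and 3001 CPM (Pcna), with 16 of 20 GFP+ pools below all GFP- pools. Their part in the values of the subunits was not tested.

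Around the complexes, counts in HC stand beside the 17.1% higher and 9.53% lower of all genes. GFP+ HC had 2 higher and 16 lower of 77 mitochondrial ribosomal protein genes, with Mrpl33 (-0.62), Mrpl19 (-0.61) and Mrpl42 (-0.56) falling most and Mrps11 (0.58) and Mrpl52 (0.33) rising. The tricarboxylic acid cycle list counted 1 higher and 4 lower of 20 (Sucla2 0.48; Idh3a -0.66, Suclg2 -0.48, Mpc2 -0.43) and electron carriers 3 higher and 1 lower of 17 (Etfdh 0.80, Slc25a4 0.29, Vdac3 0.29; Slc25a5 -0.41). Hypoxia-inducible genes counted 0 higher and 2 lower of 11 (Pgk1 -0.43, Ldha -0.22), assembly factors outside the rule 0 higher and 2 lower of 35 (Coa6 -0.42, Cox14 -0.32), and biogenesis factors 0 higher and 2 lower of 9 (Myc -1.24, Yy1 -0.53). Mitochondrial DNA and RNA handling counted 1 higher and 1 lower of 26 (Hsd17b10 0.58, Tbrg4 -0.67). The shares lower of the electron carriers, these assembly factors and DNA and RNA handling were under that of all genes, and that of the ribosomal protein genes was under that of abundant genes. In the defence list, 1 higher and 3 lower of 10 were called: the peroxidase Gpx4 rose (0.83), and Gpx1 (-1.10), Prdx5 (-0.57) and the uncoupling protein Ucp2 (-0.76) fell.

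Whether the GFP effect differed between blood and endothelium was tested as an interaction, the GFP effect in HC minus that in EC. It was higher in HC for 37 of 82 nuclear subunits, where 13.2% of 17851 genes were, and lower for 3, where 9.27% were (median 0.31, all genes 0.08, moved to 0.75 with ERCC scaling). With ERCC scaling more of the subunits were higher and fewer lower, and over all genes 5241 were higher and 519 lower. Of the genes with a mean of at least 100 CPM 34.2% were higher and 12.6% lower. The 37 were 13 subunits of complex I, 2 of complex II, 4 of complex III, 7 of complex IV and 11 of ATP synthase. Ndufa8 had the largest, with log2 fold changes of -0.14 in HC and -1.19 in EC and a difference in the joint fit of 1.01, SE 0.12, adjusted p = 2.0e-10 under edgeR's quasi-likelihood test (Benjamini-Hochberg adjustment), where 19 of 19 GFP+ EC pools and 3 of 20 GFP+ HC pools lay below all GFP- pools. Atp5a1 and Atp5b, the alpha and beta subunits of ATP synthase, followed with differences of 0.77 (SE 0.10) and 0.76 (SE 0.10). Lower in HC were Cox4i2 (-3.27, SE 0.59), which rose in EC and fell in HC, Ndufa13 (-0.47, SE 0.10), which overlaps another gene, and Cox7a2l (-0.36, SE 0.10). Of the mitochondrial genes 4 were lower in HC and 0 higher (6 and 1 at an unadjusted p under 0.05): mt-Nd4 (-0.56, SE 0.08), mt-Nd6 (-0.53, SE 0.17), mt-Co3 (-0.44, SE 0.11) and mt-Atp6 (-0.34, SE 0.10), while with ERCC scaling 0 were lower and 2 higher. Of the assembly factors 1 differed, Ndufaf2 (0.70, SE 0.16).

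MC are the PDGFRb+ stromal cells around the aorta and in the mesonephros at E11.5. Their GFP+ pools held a little less RNA of part of the nuclear subunits, among them Cox5a, Ndufa4 and subunits of ATP synthase. With all pools 12 of 81 nuclear subunits were lower in GFP+ MC, where 2.15% of 16026 genes were, and 1 higher, where 2.21% were (median -0.11, all genes -0.01). Without the 6 pools that go against their label 19 of 80 were lower and 4 higher, where 4.90% and 5.52% of 15226 genes were (median -0.12, all genes 0.01). Of the genes with a mean of at least 100 CPM 8.56% were lower and 4.88% higher with all pools, and 18.99% and 11.3% without the 6, so the share of subunits called lower stood nearer to that of abundant genes than to that of all genes. The lower ones with all pools and without the 6 were 3 and 4 in complex I, 2 and 2 in complex II, 0 and 1 in complex III, 2 and 3 in complex IV, and 5 and 9 in ATP synthase. With ERCC scaling 0 nuclear subunits were lower with all pools, and 2 without the 6, where it moves the all-gene median to 0.16. In the set without them, ATP synthase subunits held a median of 0.557% of counts in GFP+ MC and 0.693% in GFP- MC, with 15 of 17 pools below all GFP- pools.

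Cox5a fell most in the pools labelled MC. It stood at 71.6, 96.6 and 163.6 CPM against 109.1, 144.8 and 185 CPM, and without the 6 pools at 71.6, 90.5 and 134.8 CPM against 109.1, 146.7 and 185 CPM. In that set 1 of 17 pools overlapped the GFP- range. Under edgeR's quasi-likelihood test (Benjamini-Hochberg adjustment) its log2 fold change with all pools was -0.54, SE 0.09, adjusted p = 1.6e-04, with 16 of 20 pools below all GFP- pools, and without the 6 it was -0.66 (SE 0.08), with 16 of 17 below. Ndufa4, a subunit of complex IV counted here in complex I by its symbol, stood at 301, 371 and 519 CPM against 368, 482 and 616 CPM (log2 fold change -0.36, SE 0.07), and without the 6 pools at 301, 355 and 495 CPM against 437, 503 and 616 CPM (-0.48, SE 0.06, 16 of 17 below). Falls named next were those of the complex I subunits Ndufa12 (-0.34 with all pools and -0.39 without the 6) and Ndufa9 (-0.31 and -0.36), of Sdhd (-0.32 and -0.30), and of Atp5g3 (-0.30 and -0.38). Atp5g1 had log2 fold changes of -0.31, not called, and -0.41, called without the 6.

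Among the isoforms, Ndufa4l2 turned direction with the pools used. It stood at 4.06, 31.5 and 77.8 CPM in the pools labelled GFP+ MC and 0.240, 13.6 and 412 CPM in those labelled GFP- MC, where the highest values were in the pools against their label. The ranges overlapped widely, and the log2 fold change of -0.75 (SE 0.53) was not called. With those pools left out it stood at 23.4, 32 and 77.8 CPM against 0.240, 12.1 and 19.1 CPM. The ranges no longer overlapped, with all 17 GFP+ pools above every GFP- pool, and the log2 fold change of 1.72 (SE 0.28) was called. Cox4i2 had a log2 fold change of 1.15 (SE 0.44), not called, and without the 6 pools 1.23 (SE 0.24), called, at 8.58, 22.6 and 43.3 CPM against 4.01, 9.26 and 22.6 CPM. Cox7a2l (chr17:83501918-83517330, minus strand) rose in both sets: it stood at 128.1, 217 and 264 CPM against 105.7, 156.1 and 213 CPM with all pools (0.40, SE 0.09, 11 of 20 above all GFP- pools) and changed by 0.51 (SE 0.08) without the 6 (11 of 17 above). Ndufa6, an accessory subunit of complex I, was called without the 6 pools alone (0.27, SE 0.07, against 0.22 with all pools).

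Of the mitochondrial genes 4 were higher in GFP+ MC and 0 lower with all pools, where 2.21% and 2.15% of all genes were. Without the 6 the counts were 4 and 0, where 5.52% and 4.90% of all genes were. The same genes were called in both sets: mt-Nd6 (0.29 and 0.32), mt-Nd5 (0.23 and 0.26), mt-Cytb (0.20 and 0.24) and mt-Co1 (0.19 and 0.24). They encode subunits of complexes I, III and IV, and mt-Nd6 overlaps mt-Nd5 on the other strand. At an unadjusted p under 0.05 the counts with all pools were 5 and 0, and the DESeq2 Wald test called 5 and 0. With ERCC scaling 0 were higher with all pools and 5 without the 6. Of the assembly factors that match the naming rule 0 were higher and 1 lower with all pools, Ndufaf7 (-0.55), and without the 6 Ndufaf7 (-0.55) and Ndufaf2 (-0.49).

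Mesenchymal genes summed to medians of 4405 CPM in pools labelled GFP+ MC and 2992 in those labelled GFP- MC (Col3a1 most abundant), or 4574 and 3057 without the 6. The 4 muscle genes summed to 821 and 109.6 CPM (867 and 147.6 without the 6), mostly Actc1, with Myod1, Myog and Tnnt2 at 0. Urogenital epithelium genes (6) summed to 22.5 and 55.7 CPM, or 15.6 and 63.01 without the 6 pools, mostly Wt1 with the other 5 at 0, and haematopoietic genes to 31.1 and 9.94 CPM, or 35.7 and 10.9, mostly Runx1 with Ptprc, Spn, Spi1 and Gfi1b at 0. The cell cycle genes summed to 1557 and 2320.1 CPM (Mcm4 and Top2a), or 1483 and 2349.9 without the 6; Stmn2 had medians of 40.4 and 10.9 CPM, or 41.8 and 7.17, while all 8 macrophage genes had a median of 0. Their part in the falls of subunits was not tested. In the lists around the complexes with all pools, beside 2.21% higher and 2.15% lower of all genes, 0 higher and 3 lower of 77 mitochondrial ribosomal protein genes were called (Mrpl46 -0.63, Mrpl11 -0.40, Mrpl13 -0.33), 1 higher and 0 lower of 11 hypoxia-inducible genes (Higd1a, known to bind complex IV, 0.60) and 0 higher and 1 lower of 10 defence genes (Sod1 -0.32); the lists of assembly factors, biogenesis factors, DNA and RNA handling, tricarboxylic acid cycle and electron carriers had no called gene. Leaving out the 6 pools, beside 5.52% and 4.90% of all genes, gave 0 higher and 8 lower of 77 ribosomal protein genes (Mrpl46 -0.66, Mrpl3 -0.54, Mrps25 -0.49), 0 higher and 4 lower of 26 for DNA and RNA handling (Fastkd2 -0.72, Ssbp1 -0.36, Slirp -0.36, Hsd17b10 -0.34), 1 higher and 0 lower of 10 biogenesis factors (Myc 1.03), 1 higher and 1 lower of 10 hypoxia-inducible genes (Higd1a 0.72, Pgk1 -0.41) and 0 higher and 1 lower of 10 defence genes (Sod1 -0.40), with no gene called on the other 3 lists.

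SNS pools hold p75+ cells of the developing sympathetic ganglia at E11.5. Few of their subunits differed by reporter level, and the largest difference was in an isoform. With all pools 1 of 81 nuclear subunits was higher in GFP+ SNS, where 2.01% of 16143 genes were, and 0 lower, where 1.85% were; at an unadjusted p under 0.05 the counts were 8 and 6, and the DESeq2 Wald test called 2 and 0. The median log2 fold change was -0.02 against -0.00 over all genes, which ERCC scaling moves to 0.35. Without the 6 pools 2 were higher and 3 lower of 81, where 4.94% and 5.48% of 15658 genes were, and ERCC scaling of that set gave 37 and 0 with an all-gene median of 0.44. Of the genes with a mean of at least 100 CPM 3.41% were higher and 2.98% lower with all pools, and 7.003% and 10.4% without the 6; the counts of subunits are not above these. Counts on genes per ERCC count differed in these pools, with medians on the log2 scale of 7.55 and 7.07, or 7.64 and 7.12 without the 6.

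That isoform, Ndufa4l2, stood at 9.04, 41.2 and 334 CPM in pools labelled GFP+ SNS and 0.626, 13.9 and 57.4 CPM in those labelled GFP- SNS. The ranges overlapped in 10 of 18 GFP+ pools. Its log2 fold change with all pools was 2.29, SE 0.47, adjusted p = 0.0013 under edgeR's quasi-likelihood test (Benjamini-Hochberg adjustment), with 8 of 18 pools above all GFP- pools. Without the 6 pools it stood at 18.5, 85.5 and 334 CPM against 0.626, 12.1 and 31.8 CPM. The log2 fold change there was 2.87 (SE 0.45), with 12 of 15 above. Without the 6, Uqcrfs1 rose (0.25, SE 0.06) and 3 subunits fell: Sdhc, a membrane anchor of complex II (-0.28, SE 0.07), Ndufb5, an accessory subunit of complex I (-0.25, SE 0.07), and Cox4i1 (-0.19, SE 0.05), the latter 2 with exon bases shared with other genes. These changes had 6, 5, 5 and 9 of 15 pools beyond all GFP- pools. Of the mitochondrial genes 0 were called with all pools (0 higher and 1 lower at an unadjusted p under 0.05, 0 with the DESeq2 Wald test). Without the 6 pools mt-Nd2 fell (-0.27, SE 0.08), where 5.48% of all genes were lower. ERCC scaling of that set gave 7 higher, with mt-Nd2 at 0.19 and not called. Assembly factors that match the naming rule had 0 calls, 3 and 1 at an unadjusted p under 0.05.

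In pools labelled SNS the mesenchymal genes summed to 231 CPM with GFP and 525 without (Col3a1 and Col1a2), the 6 genes of urogenital epithelium to 2.04 and 73.5, and the cell cycle genes to 2724 and 2248 (Mcm6). The sums without the 6 pools were 202 and 505, 1.77 and 83.5, and 2799 and 2283 CPM. The part of these differences in the values above was not tested. Around the complexes, where 2.01% of all genes were higher and 1.85% lower, 2 higher and 0 lower of 77 mitochondrial ribosomal protein genes (Mrps6 0.46, Mrpl18 0.31), 1 higher and 0 lower of 35 assembly factors (Cox15, of heme A synthesis, 0.50), 0 higher and 1 lower of 12 hypoxia-inducible genes (Pdk1 -1.45) and 1 higher and 0 lower of 10 defence genes (Ucp2 0.88) were called with all pools, and no gene of the other 4 lists was. The ribosomal protein genes and assembly factors were thus near the share of all genes. Leaving out the 6 pools, where 4.94% and 5.48% of all genes were called, gave 1 higher and 3 lower of 77 (Mrps6 0.48, Mrpl22 -0.39, Mrpl54 -0.36, Mrps18a -0.32), 1 higher and 0 lower of 35 (Cox15 0.54), 0 higher and 3 lower of 12 (Pdk1 -1.74, Vegfa -0.90, Ldha -0.37) and 2 higher and 1 lower of 10 (Ucp2 1.05, Sod2 0.38, Gpx4 -0.24). The tricarboxylic acid cycle list then counted 1 higher and 1 lower of 20 (Idh3a 0.44, Suclg2 -0.51), biogenesis factors 1 higher and 0 lower of 9 (Myc 0.75), DNA and RNA handling 0 higher and 1 lower of 26 (Hsd17b10 -0.46) and electron carriers 0 higher and 1 lower of 17 (Etfb -0.23).

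The interaction of the E11.5 gates, the GFP effect in SNS minus that in MC, was higher in SNS for 7 of 81 nuclear subunits, where 5.17% of 17733 genes were, and lower for 1, where 4.49% were. Without the 12 pools it was higher for 8 and lower for 2 (Cox7a2l, -0.55, SE 0.11, and Ndufa6, -0.47, SE 0.12), where 4.73% and 5.64% of 17309 genes were. Abundant genes, with a mean of at least 100 CPM, were higher in 12.4% and lower in 8.75% with all pools, and 16.4% and 10.98% without the 12; the counts of subunits are not above these shares in either set. With all pools the 7 were Ndufa4l2 (3.04, SE 0.72), Cox5a (0.62, SE 0.13), Ndufa12 (0.42, SE 0.11), Ndufa9 (0.37, SE 0.10), the iron-sulfur subunit Sdhb (0.32, SE 0.09) and the ATP synthase subunits Atp5f1 (0.32, SE 0.06) and Atp5c1 (0.24, SE 0.07), and Cox7a2l was lower (-0.61, SE 0.13); without the 12 pools Ndufa4l2, higher with GFP in both gates there, was not among those called. Cox5a had log2 fold changes of 0.10 in SNS and -0.54 in MC. The mitochondrial genes had 0 higher and 3 lower, mt-Nd6 (-0.36, SE 0.09), mt-Nd5 (-0.29, SE 0.07) and mt-Nd4 (-0.28, SE 0.07), and 0 and 3 without the 12 pools. ERCC scaling, which moves the all-gene median from -0.01 to 0.37, gave 11 and 0 nuclear subunits and 0 mitochondrial genes lower. Of the assembly factors Ndufaf2 (0.61, SE 0.14) and Ndufaf4 (0.81, SE 0.23) were higher in SNS, and so they were without the 12 pools (0.58, SE 0.15, and 0.81, SE 0.20).

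Blood cells arise from endothelium at this stage, and the 2 cell types were compared over both reporter levels. Here 47 of 82 nuclear subunits were higher in HC than in EC, where 25.5% of 17851 genes were, and 6 lower, where 24.8% were (median 0.22, all genes 0.02, which ERCC scaling moves to 0.43). Of the genes with a mean of at least 100 CPM 39.3% were higher and 30.5% lower. The higher ones were 18 subunits of complex I, 3 of complex II, 5 of complex III, 9 of complex IV and 12 of ATP synthase. The largest were isoforms: Cox6a2 (4.79, SE 0.69) and Cox7a1 (3.44, SE 0.35), both known from heart and muscle, Ndufa4l2 (3.14, SE 0.67) and Cox4i2 (2.81, SE 0.31). Cox6a2 was absent from every GFP- EC pool, and its median share of its set was 0 in GFP+ HC and 0.0236% in GFP- HC. Its fold change is thus one at the floor. Ndufa4l2 too had a median of 0 in GFP- HC and in both EC populations. After these isoforms came Ndufv3, an accessory subunit of the NADH-oxidizing arm of complex I (1.24, SE 0.06). Its medians were 253 and 287 CPM in GFP+ and GFP- HC and 108.3 and 118.1 in EC. Lower in HC were Cox7a2l (-0.42, SE 0.05), Ndufa8 (-0.28, SE 0.06), Ndufs4 (-0.21, SE 0.05), Atp5h (-0.20, SE 0.04), which shares reads with its copies, Ndufa4 (-0.18, SE 0.05) and Uqcrh (-0.16, SE 0.04), and 0 nuclear subunits were lower with ERCC scaling. These values average over the reporter levels. The GFP effect itself was higher in HC than in EC for Ndufa8 (1.01), Ndufs4 (0.55) and Uqcrh (0.33), and lower for Cox7a2l (-0.36) and Cox4i2 (-3.27). Their direction or size therefore need not hold at both levels. Mitochondrial genes counted 4 higher and 0 lower: mt-Nd6 (0.78, SE 0.08), mt-Nd5 (0.19, SE 0.04), mt-Nd4 (0.17, SE 0.04) and mt-Co1 (0.15, SE 0.04), and with ERCC scaling 12 higher. For mt-Nd4 the medians were 1867 CPM in GFP+ HC and 1859 in GFP+ EC, but 1884 in GFP- HC and 1323 in GFP- EC. The assembly factors Ndufaf8 (0.67) and Ndufaf7 (0.40) were also higher. Of the lists around them, 37 higher and 4 lower of 77 ribosomal protein genes, 11 higher and 0 lower of 20 of the tricarboxylic acid cycle, 7 higher and 0 lower of 17 electron carriers, 8 higher and 3 lower of 35 assembly factors outside the rule, 4 higher and 4 lower of 12 hypoxia-inducible genes, 7 higher and 1 lower of 10 defence genes, 1 higher and 2 lower of 10 biogenesis factors and 4 higher and 3 lower of 26 of DNA and RNA handling were called.

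SNS and MC are nerve and stroma of one stage. With all pools 14 of 81 nuclear subunits were higher in SNS, where 11.4% of 17733 genes were, and 4 lower, where 12% were. Without the 12 pools the counts were 21 and 10, where 20.5% and 19.7% of 17309 genes were. Among genes with a mean of at least 100 CPM 27.1% were higher and 20.9% lower with all pools, and 35.7% and 27.3% without the 12; the counts of subunits are not above these shares. ERCC scaling, which moves the all-gene median from 0.00 to 0.48, gave 76 and 2. Higher with all pools and without the 12 were Cox5a (0.39, SE 0.06, and 0.52, SE 0.05), Atp5g1 (0.33 and 0.46), the flavoprotein Ndufv1 (0.30 and 0.45) and the iron-sulfur protein Ndufs1 (0.28 and 0.37). Cox7b changed by 0.29 with all pools, and Ndufa4l2 by 0.93 without the 12. Lower were Cox4i2 (-1.80, SE 0.39, and -3.15, SE 0.29), Cox6b2 (-0.97, SE 0.18, and -1.44, SE 0.15), Cox7a2l (-0.29 and -0.39) and the complex I subunit Ndufa11 (-0.23 and -0.37), and without the 12 also Ndufa5 (-0.39, SE 0.07), another subunit of complex I. Mitochondrial genes counted 1 higher (mt-Nd1, 0.15) and 4 lower (mt-Nd6 -0.17, mt-Nd4 -0.13, mt-Nd5 -0.12, mt-Cytb -0.12), and 1 and 5 without the 12 pools, where mt-Co3 (-0.17) joined the lower ones. ERCC scaling turned these counts to 12 higher and 0 lower with all pools, and to 13 and 0 without the 12. Ndufaf4 was the 1 assembly factor matching the naming rule that was called (0.64 and 0.91). Around the complexes, with all pools, 18 higher and 1 lower of 77 ribosomal protein genes, 7 higher and 1 lower of 20 of the tricarboxylic acid cycle, 5 higher and 2 lower of 17 electron carriers, 1 higher and 1 lower of 35 assembly factors outside the rule, 5 higher and 1 lower of 10 defence genes, 2 higher and 0 lower of 12 hypoxia-inducible genes, 2 higher and 2 lower of 26 of DNA and RNA handling and 0 higher and 0 lower of 10 biogenesis factors were called, and without the 12 pools in the same order 30 higher and 3 lower of 77, 9 and 2 of 20, 7 and 2 of 17, 4 and 1 of 35, 7 and 1 of 10, 2 and 3 of 12, 5 and 2 of 26 and 3 and 1 of 10.

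Several subunits are made from 2 or 3 genes, and the share of each gene in the RNA of its set is given per length. Which form enters the complexes was not measured. Ndufa4l2 took 2.25, 10.2 and 45.9% of the set with Ndufa4 in pools labelled GFP+ SNS and 0.119, 3.22 and 15.8% in those labelled GFP- SNS. Without the 6 pools its medians were 19.7% and 2.82%. In pools labelled MC it took 1.17, 10.1 and 22.4% and 0.0682, 2.98 and 58.6%, and without the 6 pools 6.18, 10.2 and 22.4% and 0.0682, 2.81 and 5.23%, which do not overlap. The median was 0.207% in GFP+ HC and 0 in GFP- HC and in EC. Cox7a2l took 21.8, 28.8 and 44.4% of the set with Cox7a1 and Cox7a2 in GFP+ EC and 12.3, 17.1 and 21.6% in GFP- EC. Those ranges do not overlap, and Cox7a2 held most of the rest with 70.6% and 82.8%. In MC the medians of Cox7a2l were 26.6% and 18.97% (27.1% and 18.6% without the 6 pools), in HC 16.8% and 16.5% and in SNS 17.6% and 19.4% (17.8% and 17.9% without the 6).

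**Figure D4:**
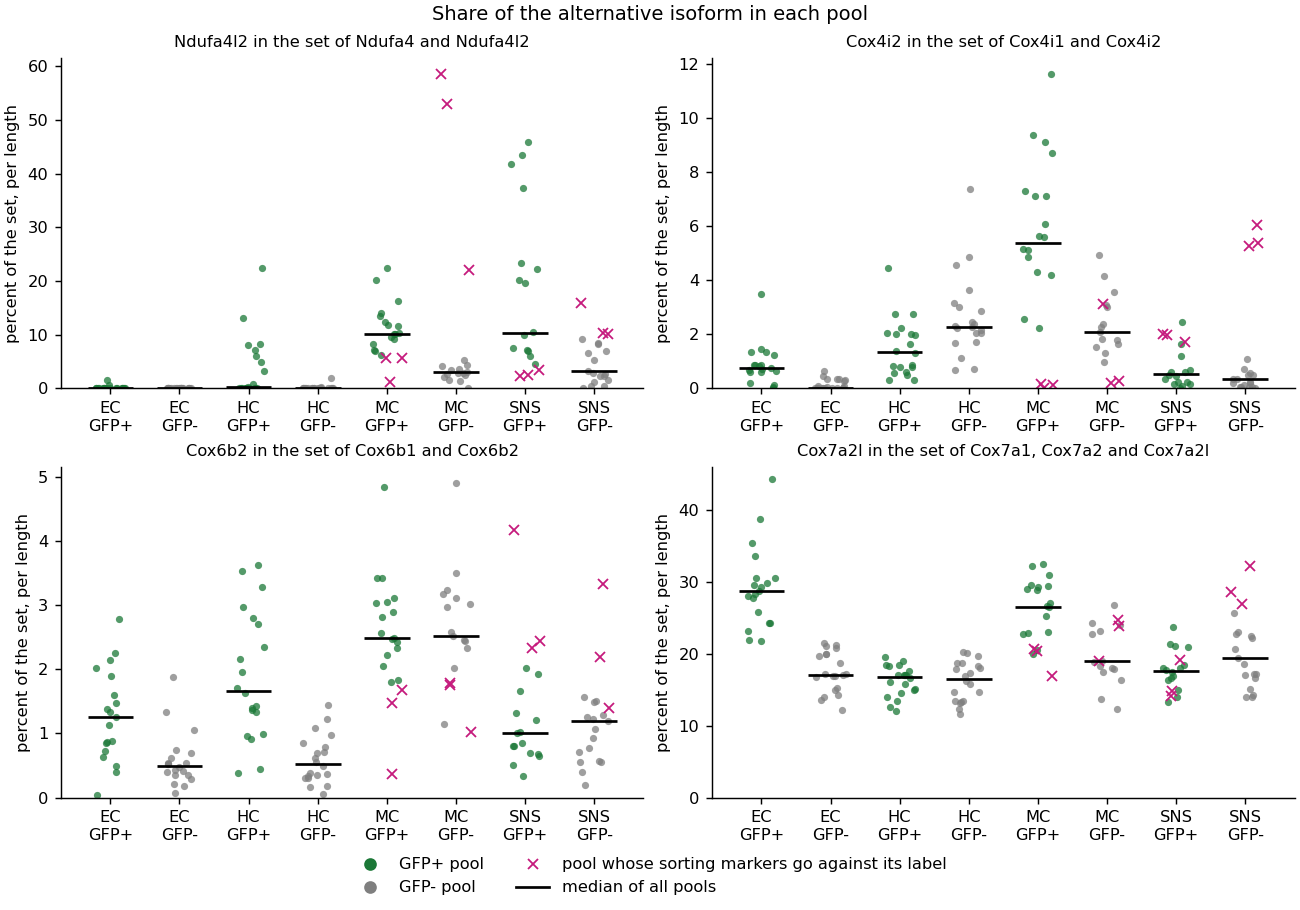
Share of Ndufa4l2, Cox4i2, Cox6b2 and Cox7a2l in their sets, as percent of the set's level per length, in each pool. Crosses mark the 12 pools that go against their label.

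The plot of isoform shares also shows Cox4i2 and Cox6b2 as minor forms in every population. Cox4i2 took medians of 0.751% and 0.0358% of the set with Cox4i1 in GFP+ and GFP- EC, 1.34% and 2.29% in HC, 5.38% and 2.10% in MC (5.64% and 2.18% without the 6 pools) and 0.553% and 0.343% in SNS (0.474% and 0.226%). Cox6b2 took 1.26% and 0.494% in EC, 1.67% and 0.521% in HC, 2.48% and 2.52% in MC (2.57% and 2.77% without the 6) and 1.01% and 1.19% in SNS (0.846% and 0.995%). Cox7a1 had medians of 1.66% and 2.61% in HC. The muscle and germ cell forms Cox6a2, Cox7b2, Cox8b and Cox8c had medians of 0 in all populations but GFP- HC, where Cox6a2 took 0.0236%. Of their partners, Cox6a1, Cox6b1, Cox8a and Cox7a2 changed in EC by -0.64, -0.65, -0.72 and -0.70, and Cox4i1, Ndufa4 and Uqcrh, the hinge protein of complex III, by -0.35, -0.44 and -0.25. RNA for the c subunit came mostly from Atp5g3, with 82.2% in GFP+ EC against 10.9% from Atp5g1 and 6.43% from Atp5g2. These shares are uncertain because Atp5g1 and Atp5g2 share reads with copies.

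Across the 8 populations the medians of the mitochondrial genes of complex I ran as follows: mt-Nd1 from 5106 (GFP- HC) to 6334 CPM (GFP- SNS), mt-Nd2 from 932 (GFP- EC) to 1147 CPM (GFP- SNS), mt-Nd3 from 11.7 (GFP- MC) to 53.1 CPM (GFP+ HC), mt-Nd4 from 1323 (GFP- EC) to 2291 CPM (GFP+ MC), mt-Nd4l from 7.98 (GFP+ SNS) to 32.4 CPM (GFP+ EC), mt-Nd5 from 1355 (GFP- EC) to 2422 CPM (GFP+ MC) and mt-Nd6 from 206 (GFP+ EC) to 516 CPM (GFP+ MC). The cytochrome b gene and the core subunits of complex IV ran thus: mt-Cytb from 4425 (GFP- EC) to 7811 CPM (GFP+ MC), mt-Co1 from 4962 (GFP- EC) to 7484 CPM (GFP+ MC), mt-Co2 from 59.2 (GFP+ SNS) to 356 CPM (GFP+ HC) and mt-Co3 from 98.4 (GFP+ SNS) to 594 CPM (GFP+ EC). The membrane subunits of ATP synthase had these ranges: mt-Atp6 from 121.4 (GFP- MC) to 625 CPM (GFP+ EC) and mt-Atp8 from 5.76 (GFP- MC) to 17.6 CPM (GFP+ EC). Between the E10.5 and E11.5 gates some transcripts thus stepped down, some kept a similar level and some rose. The ratio of the E10.5 to the E11.5 median was 5.11 for mt-Co2, 4.79 for mt-Co3, 4.65 for mt-Atp6, 3.79 for mt-Nd3, 2.75 for mt-Nd4l and 2.41 for mt-Atp8. For mt-Nd2, mt-Nd1, mt-Co1 and mt-Nd4 it was 1.02, 0.889, 0.881 and 0.873. It was lowest for mt-Nd5 (0.738), mt-Cytb (0.703) and mt-Nd6 (0.670), which were higher at E11.5. All but mt-Atp8 of the first 6 have a copy of at least 99% identity in the table. Copies took medians of 51.5% and 59.6% of the counts on mt-Co2 and its copies at E10.5 and E11.5, 49.5% and 49.99% for mt-Co3, 51.7% and 49.7% for mt-Atp6, 63.1% and 59.03% for mt-Nd4l and 68.4% and 83.2% for mt-Nd3, whose copy had medians of 100.3 and 61.2 CPM against 45.6 and 12.03 for mt-Nd3 itself. For mt-Co1 and mt-Nd4, which also have such a copy, copies took 9.02% and 4.16%, and 5.99% and 1.80%. The part of the copies in the step was not tested. The stages hold other gates, so stage and cell type cannot be told apart, and the step was not tested.

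**Figure D5:**
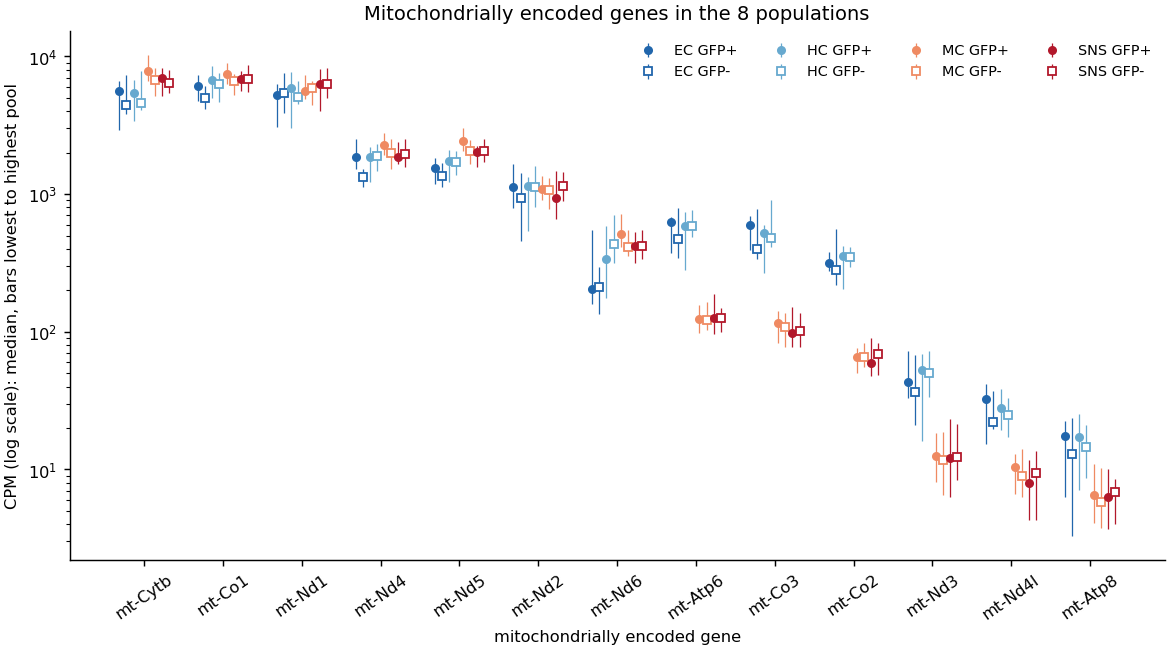
Median CPM of the 13 mitochondrially encoded genes in the 8 populations on a logarithmic axis, with bars from the lowest to the highest pool. ERCC scaling is not applied here, and with it the log2 fold changes of all 13 genes in EC were below 0.

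The plot of the 13 genes shows the step in mt-Co2, mt-Co3 and mt-Atp6 between the left and the right 4 populations. Last, the nuclear subunits that fell with the reporter can be set side by side between comparisons that share no pools. Of the 79 subunits tested in both EC and HC, and of the 79 in both EC and MC, 60 were lower in EC, so most of any other list would also be among them. EC and HC had 12 falls in common, 20% of those in EC and 80% of those in HC, among them Atp5g1, Atp5g3, Cox4i1, Cox8a and Uqcrfs1. EC and MC had 11 in common, 18.3% of those in EC and 91.7% of those in MC with all pools, among them Atp5a1, Atp5b, Atp5g3, Cox5a and Cox7b. Of the 81 tested in both HC and MC, 15 were lower in HC and 12 in MC. HC and MC shared 2, Atp5g3 and Sdhd, which are 13.3% and 16.7%, not above the shares lower among all 81. Atp5g3, a gene for the c subunit, was the 1 nuclear subunit called lower in EC, HC and MC with all pools, and without the 6 pools Atp5g1 and Atp5j2 were lower in all 3 as well.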

How the data were processed

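Counts per gene were deposited by the authors in 1 table for all 160 pools, made from Smart-seq2 libraries with 92 ERCC RNAs added. The paper names STAR with Ensembl release 81 for the alignment, while the submitters' processing notes name GSNAP, HTSeq 0.5.3p3 and mm10; no file settles which. Columns carry a population and no pool number, and 0 columns were not used. The table holds 46078 genes, of which 45143 are in GENCODE M21, and 5 lines that name no gene, which took 38.3% to 67.6% of the reads of a pool (median 51.2%).

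Pools were kept with at least 500000 counts on genes and ERCC RNAs, at least 20% of reads on genes, at most 20% mitochondrial and at most 20% ERCC; 7 were left out. CPM were taken over counts on genes, adjusted by TMM factors over all populations together. Shares of counts on genes carry no such factor. edgeR 4.0.16 in R 4.3.3 (TMM scaling, robust quasi-likelihood test, Benjamini-Hochberg adjustment over all genes tested) compared genes that reached 10 counts in 5 or more pools of a comparison, and called those whose log2 fold change was beyond 0.1 at an adjusted p under 0.01. SE is the log2 fold change divided by the root of F. Also run were size factors of DESeq2 1.42.0, scran 1.30.0 and ERCC, mitochondrial genes left out of the scaling, all pools, other filters on low counts, the DESeq2 Wald test, a scanpy 1.11.5 t-test and 1 fit of all populations. Chosen after seeing the data were the counts of near-identical copies added, found with blastn 2.17.0, and the pools left out that go against their label (Pdgfrb against Ngfr in MC and SNS, Cdh5 against Ptprc and Itga2b in EC and HC) or that hold mesenchymal RNA.

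Named with values were Gata3 and the sorting markers, the mitochondrial genes, the isoform sets, the highest member per length of each complex, the 5 largest rises and falls called in each comparison and up to 3 genes each way per list; others named, such as Atp5a1, Ndufa13 or the genes of the interactions, were chosen after their values were seen. The members and lists were chosen with earlier results of these data known. The summed levels of 3 marker lists (sympathetic, neural crest and Schwann precursor, erythroid) are not reported. Tables and plots used matplotlib 3.10.9, scipy 1.17.1, pandas 2.3.3 and numpy 2.4.6 under Python 3.11.15.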

Additional observations from a re-analysis of the deposited data

Results flagged for a closer look

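Each result here was flagged because a test of the difference itself found that the GFP effect of single genes differed between 2 gates. Between HC and EC, the GFP effect was higher in HC for 37 of 82 nuclear subunits, where 13.2% of all genes and 34.2% of those with a mean of at least 100 CPM were, and lower for 3, where 9.27% and 12.6% were. With ERCC scaling more of them were higher and fewer lower, and over all genes 5241 were higher and 519 lower. For the mitochondrially encoded subunits it was lower in HC for 4, while with ERCC scaling 0 were lower and 2 higher. Between SNS and MC with all pools, it was higher in SNS for 7 of 81 nuclear subunits, where 5.17% of all genes and 12.4% of the abundant ones were, and lower for 1, where 4.49% and 8.75% were. Without the 12 pools that go against their label it was higher for 8 and lower for 2, and Ndufa4l2, the largest of the 7, was not called. It was lower in SNS for 3 mitochondrially encoded subunits, and with ERCC scaling for 0. The gates of one stage were compared with each other, and the kinds of cell in each gate differ by reporter level, so their part in these differences was not tested.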

How the results depend on the processing

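Depth and design limit these results. Pools hold 20 cells, and a subunit at a low level, such as Ndufa4l2 in EC, is read in few of them. Reads that match both a member and its copies are placed by rules the table does not show. Pools are not tied to animals in the labels, and EC and HC pools of a population share them. No paired analysis was possible because the columns carry no pool number. Of 222 fold changes of named genes, run under the alternatives as 2756 values, 2536 kept their side of the threshold, 62 gained a call and 23 reversed, and the rest lost a call. The shares of counts did not move beyond 1.5 times, nor did any count when the EC pool with mesenchymal RNA was left out. Called falls of nuclear subunits in GFP+ EC numbered 57 to 77 under all settings. Where a value below changed, the cause was not tested.

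ERCC scaling moved these values, given with the one under the scaling used above in parentheses. In EC the nuclear subunits higher were 0 (2), the mitochondrial genes higher 0 (6) and lower 5 (0). Reversed in EC were mt-Nd4 to -0.18 (0.48), mt-Nd4l to -0.38 (0.36), mt-Nd5 to -0.58 (0.11), mt-Cytb to -0.44 (0.26), mt-Co1 to -0.43 (0.31), mt-Co2 to -0.51 (0.11), mt-Co3 to -0.26 (0.40), mt-Atp6 to -0.40 (0.27), Cox7a2l to -0.44 (0.27), Prdx5 to -0.31 (0.44) and Mrps18a to -0.31 (0.40). Nuclear subunits lower in GFP+ HC were 3 (15). In MC the nuclear subunits higher were 0 (1) and lower 0 (12), and mitochondrial genes higher 0 (4). In SNS 5 nuclear subunits were higher (1). For HC against EC the nuclear subunits were 77 higher (47) and 0 lower (6), and mitochondrial genes 12 higher (4). For SNS against MC the nuclear subunits were 76 higher (14) and 2 lower (4), and the mitochondrial genes 12 higher (1) and 0 lower (4). The interaction of HC with EC had 74 nuclear subunits higher (37) and 1 lower (3), with 2 mitochondrial genes higher (0) and 0 lower (4). That of SNS with MC had 11 higher (7) and 0 lower (1), with 0 mitochondrial genes lower (3).

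Over all genes, ERCC scaling gave these counts higher and lower: EC 951 and 5685 (14.3% higher), against 2932 and 2492 (54.1%); MC 276 higher (72.4%), against 354 (50.7%); SNS 844 and 169 (83.3% higher), against 325 and 299 (52.1%); HC against EC 7403 and 2509 (74.7% higher), against 4557 and 4425 (50.7%); SNS against MC 7623 and 922 (89.2% higher), against 2013 and 2135 (48.5%); HC minus EC 5241 and 519 (90.99% higher), against 2357 and 1654 (58.8%); SNS minus MC 1423 and 443 (76.3% higher), against 917 and 796 (53.5%). Without the pools that go against their label ERCC scaling gave MC 1027 and 228 (81.8%), SNS 4097 and 363 (91.9%), SNS against MC 10144 and 1408 (87.8%) and SNS minus MC 1386 and 488 (73.96%). Without ERCC scaling that set gave MC 840 and 746 (52.96%), SNS 773 and 858 (47.4%), SNS against MC 3550 and 3413 (50.98%) and SNS minus MC 819 and 976 (45.6%). The scanpy t-test gave EC 2424 and 3096 (43.9%), and 1 fit of all populations HC 3927 and 1380 (73.997%) where the single fit gave HC 2763 and 1544 (64.2%). That fit of all populations also gave MC 493 and 637 (43.6%) and SNS 273 and 405 (40.3%).

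Leaving out the pools that go against their label gave, in MC, 4 nuclear subunits higher (1) and 19 lower (12), Gata3 reversed to 1.88 (-0.66) and Ndufa4l2 to 1.72 (-0.75). In SNS it gave 2 nuclear subunits higher (1) and 3 lower (0), with 1 mitochondrial gene lower (0). For SNS against MC 10 nuclear subunits were lower (4), and in their interaction 2 were lower (1). With ERCC scaling as well, MC had 4 higher and 2 lower, with Gata3 at 2.04 and Ndufa4l2 at 1.87. SNS then had 37 nuclear subunits and 7 mitochondrial genes higher, and reversed there were mt-Nd4 to 0.37 (-0.07), mt-Nd5 to 0.43 (-0.04), mt-Nd6 to 0.41 (-0.05), mt-Co3 to 0.35 (-0.06), Cox6a1 to 0.37 (-0.03) and Cox7a2l to 0.40 (-0.20). SNS against MC had 79 nuclear subunits higher and 2 lower, with 13 mitochondrial genes higher and 0 lower, and the interaction 16 higher and 0 lower, with 0 mitochondrial genes lower. With the DESeq2 Wald test as well, MC had 4 higher and 20 lower, with Gata3 at 1.89 and Ndufa4l2 at 1.72, and SNS 2 higher and 3 lower, with 1 mitochondrial gene lower.

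Other settings moved small counts. The DESeq2 Wald test gave 8 nuclear subunits lower in HC (15), 1 mitochondrial gene higher in HC (0) and 2 nuclear subunits higher in SNS (1), and DESeq2 size factors gave 6 nuclear subunits lower and 1 mitochondrial gene higher in HC. Size factors of scran gave 1 nuclear subunit (2) and 3 mitochondrial genes (6) higher in EC, 23 nuclear subunits and 1 mitochondrial gene lower in HC, 2 nuclear subunits higher in SNS, and 2 mitochondrial genes lower in HC minus EC (4). The scanpy t-test gave 1 nuclear subunit higher in EC, 25 nuclear subunits and 1 mitochondrial gene lower in HC, and 0 nuclear subunits higher in SNS. With copies added, 23 nuclear subunits and 1 mitochondrial gene were lower in HC. With mitochondrial genes left out of the scaling, 1 mitochondrial gene was lower in HC and 2 in HC minus EC. With no filter, 1 mitochondrial gene was lower in HC and 6 nuclear subunits lower in MC (12), and with a filter of 10 counts in 20 pools 1 nuclear subunit was higher in EC. A fit of all populations gave 1 mitochondrial gene lower in HC and 2 higher in MC (4).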
